A study of Mus musculus with 10 samples.

Results

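The 582 genes described here lie on mouse chromosome 14. They were chosen from the arrays' probe coordinates (build mm9): a named gene with a probe on chromosome 14 that was well above background on all 10 arrays, represented by its brightest probe. They are 582 of the 1305 chromosome 14 genes on the array, and 582 of the 16138 genes on any chromosome that met the same rule, of which 14767 lay on the other autosomes. Of the other chromosome 14 genes, 209 passed on all arrays of 1 group or more but failed on others, 82 passed only on scattered arrays, and 432 passed nowhere. The chromosome was picked because its genes had already been seen to differ from J1 in these data, so its shift against J1 and the counts against J1 are given as a description and carry no test as a set.

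The study asked how overexpressed PRDM14 and the removal of DNA methyltransferases change the transcriptome of mouse embryonic stem cells. Each group was 1 cell line: J1, the wild-type line (2 arrays); line JP-23, which stably expresses Prdm14 (2 arrays); line JP-23+3b-3, which stably expresses Prdm14 and Dnmt3b1 (2 arrays); line 8bb, Dnmt3b-/- (2 arrays); line 36, Dnmt1-/- (1 array); and line 19-1, Dnmt1-/-Dnmt3a-/-Dnmt3b-/-, the triple knockout (1 array). All 6 lines were grown without feeder cells in serum and LIF, and no label says that replicate arrays came from separate cultures, so their spread may be technical. A difference between groups is therefore a difference between 6 single lines. The JP-23 arrays were on slides that held no other line, so slide and line cannot be told apart in any comparison with JP-23.

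Levels are log2 signals relative to the array's 75th percentile, so 0 is the brightness of the probe at that percentile. Between 50.03% and 56.03% of the probes were well above background on each array, and none was saturated. The 8 embryonic stem cell markers (Pou5f1, Nanog and the like) were above background on all 10 arrays, as were 6 of 8 trophoblast, 4 of 8 fibroblast and 1 of 6 primitive endoderm markers. The fibroblast list had a median level of -1.53 in J1, -3.69 in JP-23 and 1.15 in the Dnmt3b-/- line, and the trophoblast list one of 0.29 in J1, -1.31 in JP-23, 1.59 in the Dnmt1-/- line and -0.99 in the triple knockout. Their part in the results below was not tested. In such bulk RNA, fewer cells expressing a gene and less RNA per cell cannot be told apart.

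PRDM14 is a zinc-finger transcriptional regulator of pluripotent and germ cells that represses the de novo DNA methyltransferase genes. DNMT3B adds methyl groups to unmethylated CG dinucleotides, DNMT1 copies existing methylation after replication, and loss of these enzymes releases some germline genes from silencing. Chromosome 14 carries genes of many unrelated functions: the piRNA gene Piwil2, the retinoblastoma gene Rb1, the threonine dehydrogenase gene Tdh that mouse embryonic stem cells depend on, the T cell receptor alpha locus, and, toward its distal end, the host gene of the miR-17-92 microRNA cluster.

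The results turn on where along the chromosome a gene lies, so the upstream sequences of genes on both sides of the border found below are shown, with those of Homez and Armh4 from the interior. Each run is the 250 bases before the most upstream start that RefSeq lists for the gene (build GRCm38.p6, whose coordinates differ from those of the mm9 probes), 5′ to 3′ on the gene's strand, with every CG in capitals.
Tspan14, chr14:40966897-40967146, minus strand: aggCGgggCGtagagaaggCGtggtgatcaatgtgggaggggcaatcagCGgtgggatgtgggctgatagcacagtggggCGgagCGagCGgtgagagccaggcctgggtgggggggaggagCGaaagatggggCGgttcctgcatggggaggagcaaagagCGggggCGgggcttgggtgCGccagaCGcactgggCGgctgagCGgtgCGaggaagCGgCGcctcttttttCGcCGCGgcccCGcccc
Prxl2a, chr14:41013834-41014083, minus strand: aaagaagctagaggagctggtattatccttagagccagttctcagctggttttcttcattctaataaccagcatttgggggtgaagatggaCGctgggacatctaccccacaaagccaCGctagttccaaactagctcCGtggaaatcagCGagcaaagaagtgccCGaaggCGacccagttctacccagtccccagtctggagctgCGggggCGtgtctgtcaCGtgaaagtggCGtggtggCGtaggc
Homez, chr14:54864159-54864408, minus strand: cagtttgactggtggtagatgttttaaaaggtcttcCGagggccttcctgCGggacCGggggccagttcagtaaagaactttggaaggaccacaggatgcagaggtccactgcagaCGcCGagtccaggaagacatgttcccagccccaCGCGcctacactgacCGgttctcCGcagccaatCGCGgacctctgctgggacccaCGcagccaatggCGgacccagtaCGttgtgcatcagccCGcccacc
Armh4, chr14:49783384-49783633, minus strand: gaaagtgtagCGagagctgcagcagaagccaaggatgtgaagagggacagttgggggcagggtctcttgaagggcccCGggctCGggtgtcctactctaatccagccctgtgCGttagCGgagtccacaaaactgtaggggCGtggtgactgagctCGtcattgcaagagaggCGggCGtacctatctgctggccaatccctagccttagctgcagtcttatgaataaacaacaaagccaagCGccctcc
The motif searched was CG, which reads the same on both strands. Tspan14 had 22 CG, Prxl2a 11, Homez 15 and Armh4 10, beside a median of 6 over the 32851 upstream windows of the same length in the table, 92.1% of which hold at least 1. As many or more were present in 14.8%, 35.6%, 27.3% and 37.8% of those windows, respectively. Only 307 of the 582 genes had a promoter in the table, too few to stand for the chromosome, so a split of the genes by CG content is void and is not given.

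The mature microRNAs encoded by the Mir17hg transcript, a chromosome 14 gene that was brighter in J1 than on any other array, are shown because the host transcript is the probe's target and the mature forms were not measured. The sequences are RefSeq's (GRCm38.p6, plus strand of chromosome 14), with the seed, bases 2 to 8, in capitals.
mmu-miR-17-5p: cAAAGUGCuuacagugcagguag
mmu-miR-20a-5p: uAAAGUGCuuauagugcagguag
mmu-miR-18a-5p: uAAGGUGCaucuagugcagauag
mmu-miR-19a-3p: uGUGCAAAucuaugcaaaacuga
mmu-miR-19b-3p: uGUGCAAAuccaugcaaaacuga
mmu-miR-92a-3p: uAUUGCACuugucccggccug
By seed, miR-17-5p and miR-20a-5p form 1 group and miR-19a-3p and miR-19b-3p another, while miR-18a-5p and miR-92a-3p each have their own. They lie between chr14:115043684-115043706 (miR-17-5p) and chr14:115044476-115044496 (miR-92a-3p) in that build.

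Relative to the median of the other autosomes, the median chromosome 14 gene was higher than in J1 by 0.12 (log2) in JP-23, 0.13 in JP-23+3b-3, 0.14 in the Dnmt3b-/- line, 0.17 in the Dnmt1-/- line and 0.22 in the triple knockout. These values ranked first or second among the 19 autosomes. They depended on the genes taken: over the 404 genes matched to RefSeq they were 0.31, 0.35, 0.44, 0.34 and 0.38, over a wider set that adds genes above background in only some groups JP-23 had 0.21, and with normexp background correction JP-23+3b-3 had 0.084. Set against the mean of the 6 groups, the whole chromosome stood at -0.16 on both J1 arrays and between -0.0019 and 0.092 on the 8 others, with a pooled SD between replicate arrays of 0.0033. Both J1 arrays were thus low and did not overlap the others. In the comparisons without J1 the shifts were smaller and negative: -0.024 for JP-23+3b-3 against JP-23, -0.064 for JP-23 against the Dnmt3b-/- line, and -0.045 for the Dnmt1-/- and triple knockout lines together against the Dnmt3b-/- line, which ranked 15, 18 and 16 of the 19 autosomes from the top. The Dnmt3b-/- arrays, at 0.087 and 0.092, and the JP-23 arrays, at -0.0019 and 0.0034, were apart by more than the spread between replicates. That spread may be technical, and for JP-23 slide and line cannot be told apart, so it does not measure whether the lines differ. The medians of the other autosomes themselves lay between -0.19 and -0.023 against J1, and all shifts are given relative to them.

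That small shift was the sum of unlike stretches. Splitting the ordered genes into 3 runs with the least absolute deviation (at least 10 genes a run), on the slide 1 arrays, put the borders between Tspan14 and Prxl2a and between Serp2 and Gm6994. The same procedure on the slide 2 arrays, which used the other J1 array, gave the same 2 borders. On slide 2 the J1 array was not scanned in the same pass as the other arrays. On slide 1 the Dnmt1-/- and triple knockout arrays were scanned in a different pass from J1. The proximal run held 198 genes (Gm2897 to Tspan14, chr14:3076832-41720058), the middle run 296 (Prxl2a to Serp2, chr14:41807029-76932685) and the distal run 88 (Gm6994 to Tmtc4, chr14:77879532-123318495), all in mm9. On slide 1, J1 was 0.61 below the other arrays in the middle run but 0.18 above them in the proximal and 0.36 above in the distal run. On slide 2, J1 was 0.68 below them in the middle run, and 0.21 and 0.46 above in the others. These values centre each array on the median level of the other autosomes, whose genes' own median difference was not subtracted. With that difference subtracted, the proximal run stood at -0.15 in JP-23 and -0.14 in JP-23+3b-3 against J1. It stood at -0.069 in the Dnmt3b-/- line, -0.038 in the Dnmt1-/- line and -0.069 in the triple knockout. The 3 runs removed 22.7% of the absolute deviation on slide 1 and 22.6% on slide 2.

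**Figure D1:**
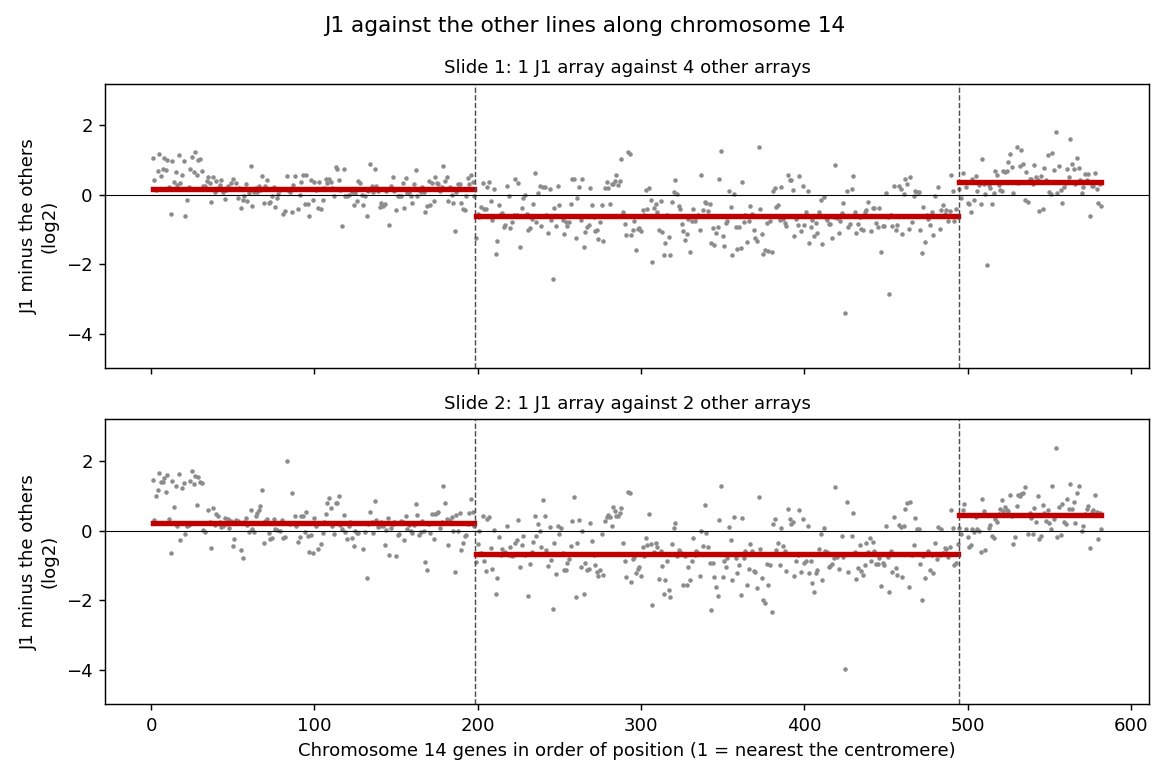
Each point is 1 of the 582 chromosome 14 genes, in order of position (x axis). The y axis is the J1 array minus the mean of the other arrays on the same slide (log2). Each array was centred on the median level of the other autosomes, and their median difference was not subtracted. Red lines are the run medians and dashed lines the borders. The middle run lies at -0.61 on slide 1 and -0.68 on slide 2, below 0, and the flanking runs lie above it.

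The genes at the borders, which were placed on these same values, are given as a description. The last gene before the proximal border, Tspan14, a tetraspanin that regulates the protease ADAM10, had levels of 2.76 and 2.73 in J1, 2.93 and 2.82 in JP-23, 2.14 and 2.32 in JP-23+3b-3, 3.05 and 2.95 in the Dnmt3b-/- line, 3.12 in the Dnmt1-/- line and 2.86 in the triple knockout. J1 lay within the range of the other lines. The first gene after it, Prxl2a, a peroxiredoxin-like protein, stood at 1.44 and 1.31 in J1, 2.41 and 2.50 in JP-23, 2.70 and 2.52 in JP-23+3b-3, 2.01 and 2.03 in the Dnmt3b-/- line, 3.17 in the Dnmt1-/- line and 2.84 in the triple knockout. Both J1 arrays were below all 8 others for Prxl2a. Not every probe just inside followed: for 1700016D02Rik, the third gene of the run, J1 minus the others was -0.64 on slide 1 and -0.023 on slide 2. At the far border, Tsc22d1 (J1 minus the others, -0.77 on slide 1 and -1.01 on slide 2) and Serp2 (-0.65 and -0.39) lay inside, and Gm6994 (0.17 and 0.079) and Dnajc15 (-0.082 and -0.099) outside.

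The arrays measured RNA only, and whether the lines differ in DNA copy number over the middle span was not tested. The middle run was higher than J1, relative to the other autosomes, by 0.71 in JP-23, 0.74 in JP-23+3b-3, 0.83 in the Dnmt3b-/- line, 0.57 in the Dnmt1-/- line and 0.58 in the triple knockout. JP-23 was hybridized on slides of its own and played no part in placing the borders, although its comparison shares the J1 arrays and its slide and line cannot be told apart. Within slide 1 the values were 0.75 for JP-23+3b-3, 0.83 for the Dnmt3b-/- line, 0.63 for the Dnmt1-/- line and 0.65 for the triple knockout, and within slide 2 they were 0.74 and 0.80 for the first 2 of these. Only JP-23+3b-3 and the Dnmt3b-/- line on slide 1 shared a scan pass with J1. The distal run went the other way, by -0.23, -0.33, -0.30, -0.33 and -0.13 in the same order of lines. Without the middle run, the rest of the chromosome lay between -0.17 and -0.071 against J1.

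**Figure D2:**
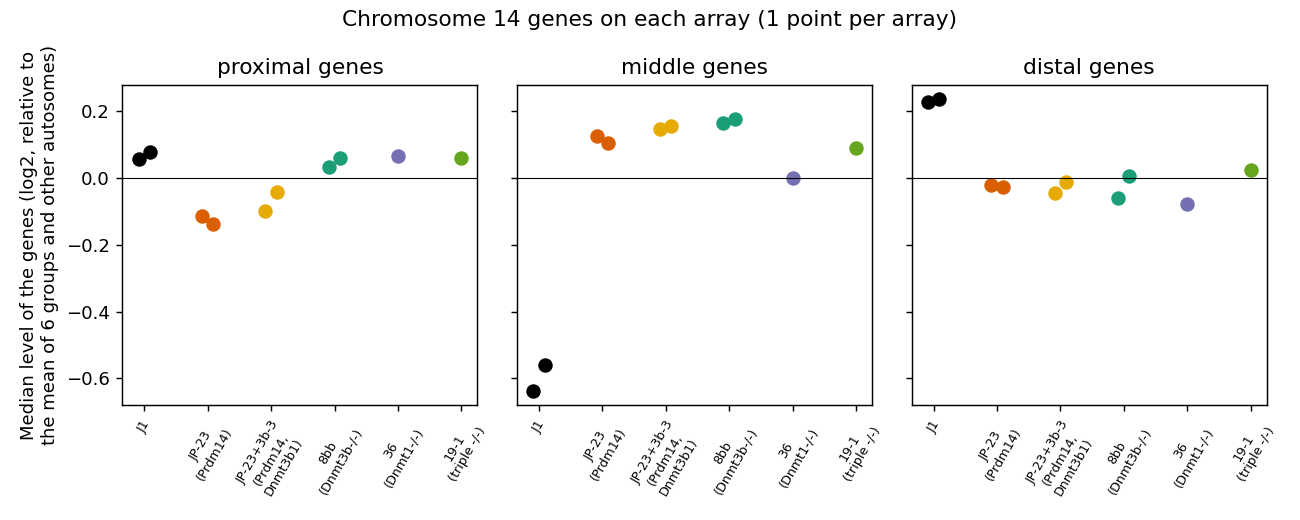
Each point is 1 array; the y axis is the median log2 level of the genes of a run relative to the mean of the 6 groups and to the other autosomes. For the middle genes the J1 arrays lie at -0.64 and -0.56 and all others between -0.00058 and 0.18, whereas for the distal genes J1 is highest, at 0.23 and 0.24.

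Among the lines other than J1 the middle run differed less. It stood at -0.010 for JP-23+3b-3 against JP-23, at -0.0065 for JP-23 against the Dnmt3b-/- line, and at -0.090 for the Dnmt1-/- and triple knockout lines together against the Dnmt3b-/- line. On single arrays it ranged from -0.00058 (Dnmt1-/-) to 0.18 (Dnmt3b-/-, second array), with a pooled SD between replicates of 0.029. In windows of 10 Mb, the mean of the 5 lines minus J1 was 0.50, 0.79, 0.83 and 0.52 in the 4 windows from 40 to 80 Mb, which hold 50, 131, 65 and 69 genes. Among 237 such windows on the other autosomes the highest value was 0.38 and the lowest -0.28, and 0 reached the lowest of the 4 windows. Other chromosome 14 windows went below that range: -0.67 in the first 10 Mb, -0.50 from 90 to 100 Mb, -0.30 from 100 to 110 Mb, -0.36 from 110 to 120 Mb and -0.32 from 120 to 130 Mb, with 39, 11, 24, 11 and 20 genes. Chromosome 14 was picked for its difference from J1, and the 4 windows cover the run placed on that difference. Setting its windows beside those of the other autosomes is therefore a description and no test.

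**Figure D3:**
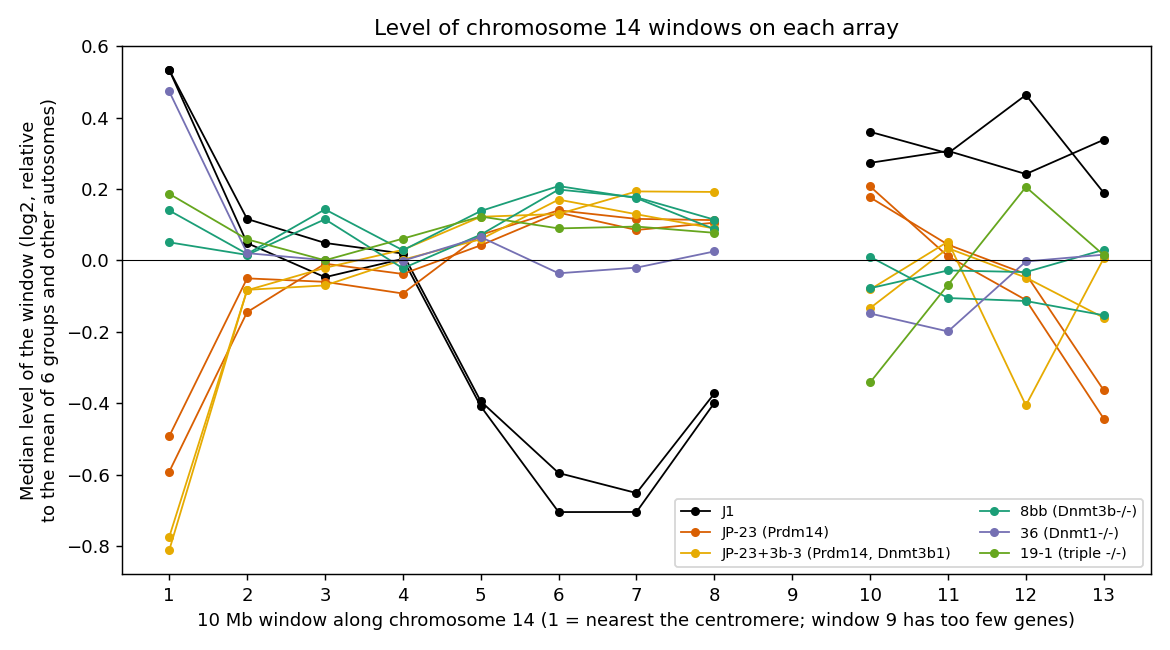
Each line is 1 array and each point the median log2 level of the genes in a 10 Mb window of chromosome 14, relative to the mean of the 6 groups and to the other autosomes. The J1 arrays drop to between -0.70 and -0.60 in windows 6 and 7 while the other 8 lie between -0.036 and 0.21. The lines that express Prdm14 drop in window 1.

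Within the middle span the shift of the 5 lines over J1 depended on the kind of probe. Among the 296 genes, the 214 whose accession matched RefSeq had a shift of 0.85 and the 82 that did not match had 0.061, each against genes of the same kind on the other autosomes. Many of the unmatched probes carry only a transcript or probe name. The 39 transcripts with lincRNA or chr names that were above background on all 10 arrays had 0.23. With the 296 genes split by mean level into 3 classes of 98 or 99, the shift was 0.46 for the dimmest class, 0.81 for the next and 0.81 for the brightest.

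Counted gene by gene, both J1 arrays were below all 8 other arrays for 153 of the 296 middle genes, 8 of 198 proximal genes and 3 of 88 distal genes, where the share over all 23797 features tested was 7.3% and that of the other autosomes' genes 7.69%. The 3 distal genes were Vwa8, Diaph3 and Clybl. Both J1 arrays were above all 8 others for 28 distal, 40 proximal and 14 middle genes (all features, 10.9%). The distal ones included Klf5, Spry2, Ipo5, Rbm26, Zic5, Slitrk5 and Mir17hg. By limma's moderated test (Benjamini-Hochberg adjusted p under 0.05), 84 middle genes, 1 proximal and 0 distal genes were higher than J1 in all 5 lines (all features, 2.5%), and 3, 7 and 13 were lower in all 5 (2.09%). The 5 comparisons share the J1 arrays. The runs were placed on J1 minus the other arrays of slides 1 and 2, so these counts by run were partly set by that choice. They are a description and no test of the runs.

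In JP-23 against J1, limma called 357 of the 582 genes (39.5% of all features): 225 higher (20.7%) and 132 lower (18.7%). Of the 225, 182 lay in the middle run, which was placed on low J1 values, so its counts here are a description. In JP-23+3b-3, 350 were called (39.1%), 232 higher (19.4%), of which 192 in the middle run, and 118 lower (19.7%). The Dnmt3b-/- line had 286 (20.8%), 207 higher (10.7%), of which 188 in the middle run, and 79 lower (10.1%). The Dnmt1-/- line had 229 (28.1%), 142 higher (13.1%), 127 of them in the middle run, and 87 lower (15%). The triple knockout had 248 (28.3%), 170 higher (13.8%), 147 of them in the middle run, and 78 lower (14.5%).

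Piwil2, an Argonaute-family protein that binds piRNAs in male germ cells and helps to silence transposons, was among the largest rises in 4 of the 5 lines. Its probe (chr14:70772497-70772556) read -3.91 and -3.57 in J1, -0.42 and -0.14 in JP-23, -0.61 and -0.55 in JP-23+3b-3, -2.55 and -2.93 in the Dnmt3b-/- line, -0.97 in the Dnmt1-/- line and -0.12 in the triple knockout. J1 was below every other array, and the Dnmt3b-/- line lay nearest to it. The J1 readings, though above background, lay near the lowest mean level of any middle gene (-3.60), so the folds over J1 rest on dim readings. The rise was 11.01-fold in JP-23 (log2 3.46, SE 0.19, limma adjusted p = 0.00011), 8.92-fold in JP-23+3b-3, 1.99-fold in the Dnmt3b-/- line, 6.79-fold in the Dnmt1-/- line and 12.3-fold in the triple knockout. Without J1, Piwil2 was 5.52-fold higher in JP-23 than in the Dnmt3b-/- line (limma adjusted p = 0.00036) and 4.58-fold higher in the Dnmt1-/- and triple knockout lines together (limma adjusted p = 0.0014), whereas JP-23+3b-3 and JP-23 differed by -0.30 (SE 0.19, limma adjusted p = 0.31).

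Ephx2, the soluble epoxide hydrolase that breaks down epoxy fatty acids, read -1.01 and -0.99 in J1, 1.90 and 2.08 in JP-23, 3.45 and 3.55 in JP-23+3b-3, 2.32 and 2.56 in the Dnmt3b-/- line, 1.70 in the Dnmt1-/- line and 2.01 in the triple knockout. No other array came near the J1 values. The folds over J1 were 7.95, 22.7, 10.9, 6.52 and 8.09 in that order of lines, the largest with a log2 difference of 4.51 (SE 0.12, limma adjusted p = 2.5e-05). Between the Prdm14 lines, which were on different slides, Ephx2 was 2.86-fold higher with Dnmt3b1 (limma adjusted p = 0.0013).

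**Figure D4:**
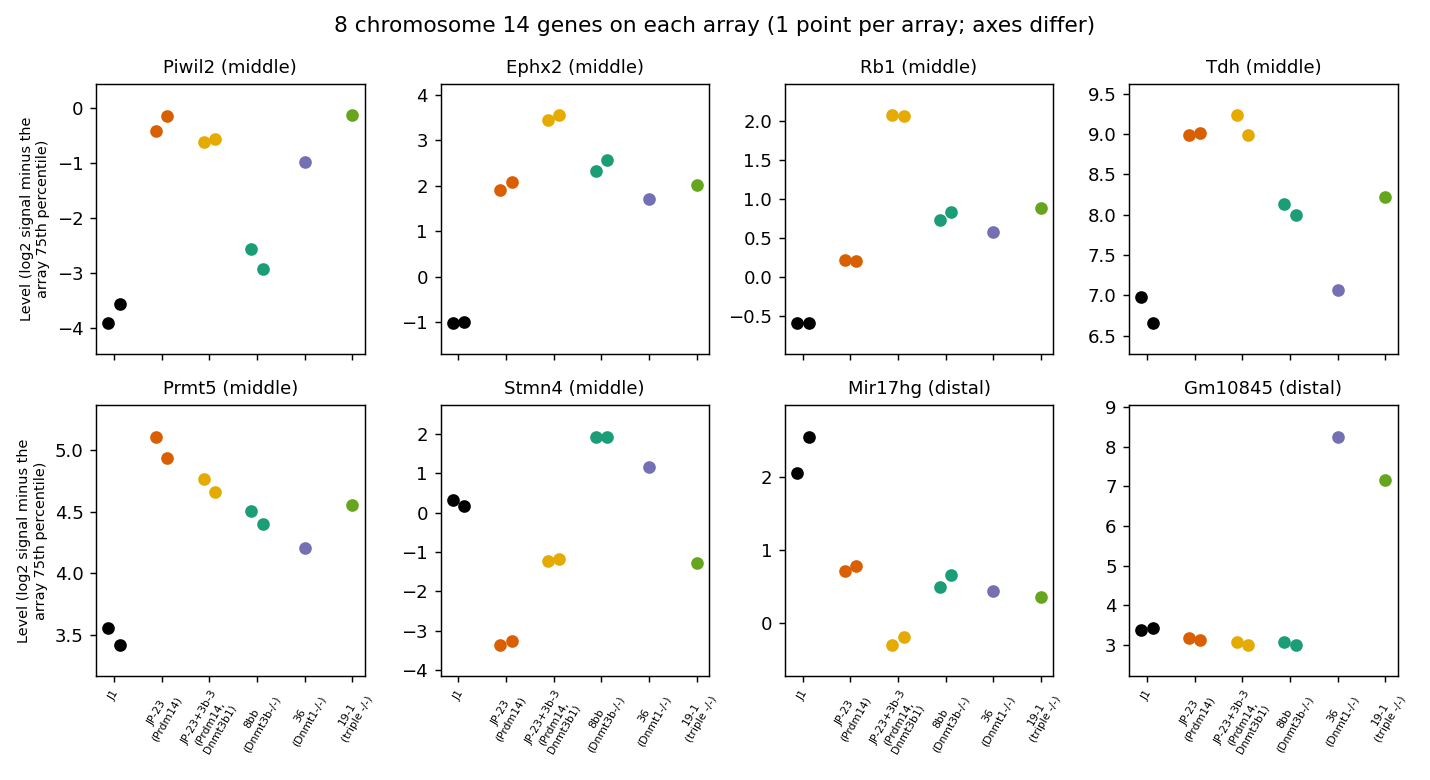
Each point is 1 array and the y axis is the log2 level of the gene's probe relative to the array's 75th percentile, on an axis of its own for each of 8 genes. J1 is lowest for Piwil2, Ephx2, Rb1, Tdh and Prmt5, highest for Mir17hg and intermediate for Stmn4, while Gm10845 stands out in the Dnmt1-/- (8.25) and triple knockout (7.17) arrays.

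The counts in the lists below, in the order JP-23, JP-23+3b-3, Dnmt3b-/-, Dnmt1-/- and triple knockout, are to be read beside the shares over all features: 20.7%, 19.4%, 10.7%, 13.1% and 13.8% called higher, 18.7%, 19.7%, 10.1%, 15% and 14.5% called lower, and 7.3% with J1 below all 8 other arrays. The middle run was placed on J1 minus the other arrays, so its members were low in J1 by selection. Of its 296 genes, 51.7% had J1 below all 8 other arrays. In the same order of lines, 61.5%, 64.9%, 63.5%, 42.9% and 49.7% of them were called higher. List members in the middle run are to be read beside these shares too. A count near the shares over all features or those of the run is no result about the list.

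Among 21 genes of chromatin and the transcription machinery, 15 lie in the middle run, and J1 was below all 8 other arrays for 14 of these 15. In JP-23, 17 of the 21 were called higher and 1 lower, with a median of 0.80 (all features, -0.032); in JP-23+3b-3, 16 and 0 (median 0.87; all features, -0.065); in the Dnmt3b-/- line, 14 and 1 (0.65; -0.098); in the Dnmt1-/- line, 6 and 2 (0.31; -0.14); and in the triple knockout, 12 and 2 (0.58; -0.068). Prmt5, the main symmetric arginine methyltransferase, read 3.56 and 3.42 in J1 against a range of 4.20 (Dnmt1-/-) to 5.11 (JP-23) elsewhere, a rise of 2.89-fold in JP-23 (limma adjusted p = 0.00024). Chd8, a chromatin remodeller, was 1.31 higher in JP-23 and 1.47 higher in JP-23+3b-3, and Setdb2, a histone H3 lysine methyltransferase-like protein, 1.22 and 1.16 higher. The 1 middle gene of the list for which J1 did not stand apart was Hnrnpc, an RNA-binding protein. Outside the middle run Rbm26 (distal) was lower than J1 by -0.74 in the Dnmt3b-/- line, -1.22 in the Dnmt1-/- line and -1.05 in the triple knockout.

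Rb1, the retinoblastoma tumour suppressor that restrains entry into S phase, read -0.60 and -0.60 in J1, 0.21 and 0.20 in JP-23, 2.08 and 2.07 in JP-23+3b-3, 0.73 and 0.84 in the Dnmt3b-/- line, 0.58 in the Dnmt1-/- line and 0.89 in the triple knockout. J1 was lowest, and JP-23+3b-3 stood apart above the rest. Its fold over J1 ran from 1.75 in JP-23 to 6.37 in JP-23+3b-3 (limma adjusted p = 2.9e-05), and the 2 Prdm14 lines differed 3.65-fold (limma adjusted p = 0.00062). Elsewhere in the middle run, Phf11d and Phf11a, PHD-finger genes that neighbour each other, were 6.82-fold and 7.19-fold higher in JP-23 than in J1. In the Dnmt1-/- and triple knockout lines together Phf11d was lower than in the Dnmt3b-/- line by 1.33 (log2 -1.33, limma adjusted p = 0.0009). The probes of such close copies may read each other's transcripts.

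Of 20 genes of DNA repair, replication and mitosis, 13 lie in the middle run, with J1 below all 8 arrays for 11. In the 5 lines 15, 13, 14, 7 and 12 of the 20 were called higher and 3, 3, 1, 3 and 3 lower, with medians of 0.94, 0.77, 0.96, 0.28 and 0.46. Apex1, the main endonuclease of base excision repair, was 1.30 higher in JP-23 and 0.53 higher in the Dnmt1-/- line. Cenpj, a centriole assembly protein, was higher by 1.15 to 1.43 in all 5 lines. Rec8, the meiotic cohesin subunit, read 0.01 and -0.17 in J1, 1.88 in the Dnmt1-/- line and 1.97 in the triple knockout, and was also 0.82 higher there than in the Dnmt3b-/- line (limma adjusted p = 0.0036). Its rise over J1 was not limited to these lines. On slide 2, where the other arrays were JP-23+3b-3 and the Dnmt3b-/- line, J1 minus the others was -1.43. The distal members Bora and Mzt1, a mitotic kinase cofactor and a microtubule nucleation factor, were lower than J1 by -0.97 and -1.03 in the Dnmt1-/- line.

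Of 23 genes of metabolism and mitochondria, 15 lie in the middle run, with J1 below all 8 arrays for 11, and 15, 12, 15, 8 and 13 of the 23 were called higher in the 5 lines against 3, 1, 0, 1 and 0 lower. Their medians against J1 were 0.57, 0.43, 0.91, 0.25 and 0.67. Tdh, which converts threonine toward glycine and acetyl-CoA, read 6.98 and 6.66 in J1, 8.99 and 9.01 in JP-23, 9.24 and 8.98 in JP-23+3b-3, 8.14 and 8.00 in the Dnmt3b-/- line, 7.07 in the Dnmt1-/- line and 8.22 in the triple knockout. The Dnmt1-/- array was the closest to J1, by 0.25 (SE 0.18, limma adjusted p = 0.35), while JP-23 was 4.54-fold higher (limma adjusted p = 0.00021). Msra, which repairs oxidized methionine, was higher in all 5 lines, by 1.08 to 2.10. Adk, adenosine kinase, was the only member of this list outside the middle run with J1 below all 8 arrays.

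Of 6 nuclear transport genes, 5 lie in the middle run, with J1 below all 8 arrays for 3 of them. Xpo7, another exportin of the middle run, did not follow it, with J1 minus the others at 0.014 on slide 1 and 0.12 on slide 2. Xpo4, an exportin, read 0.28 and 0.24 in J1 and 1.41 to 2.79 elsewhere, with J1 below all others. Ipo5, an importin in the distal run, read 5.20 and 5.27 in J1 and 3.92 to 4.52 elsewhere, with J1 above all others. Of the 6, limma called 4, 4, 3, 3 and 3 higher than J1 in the 5 lines and 1 lower in each, which was Ipo5. Their medians were 0.87, 0.73, 0.56, 0.28 and 0.50.

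Of 15 proteasome and ubiquitin genes, 7 lie in the middle run, with J1 below all arrays for 4, and 5, 5, 6, 4 and 6 of the 15 were called higher against 2, 4, 1, 4 and 3 lower, most of the latter near the shares over all features, with medians of -0.11, -0.12, 0.25, 0.24 and 0.22. Psme2, a subunit of the interferon-inducible proteasome activator, did not follow the run: it read 4.86 and 4.78 in J1, 4.70 and 4.63 in JP-23, 4.90 and 5.02 in JP-23+3b-3, 6.21 and 6.12 in the Dnmt3b-/- line, 7.15 in the Dnmt1-/- line and 6.32 in the triple knockout. JP-23 lay just below J1 and JP-23+3b-3 just above it, and the 3 knockout lines lay above them all. Its partner Psme1 was likewise 1.49 higher in the Dnmt1-/- line and 0.11 higher in JP-23, the latter not called. The J1 arrays differed from each other by more than 1 for Uchl3 (-1.80 and -0.51) and Usp54 (-0.69 and 1.15), and neither was called in any comparison.

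Of 15 ligands, receptors and pathway regulators, 9 lie in the middle run, with J1 below all arrays for 5, and 8, 11, 10, 7 and 4 were called higher in the 5 lines against 3, 4, 1, 2 and 4 lower, where the lower counts in JP-23, the Dnmt3b-/- and the Dnmt1-/- lines are near the shares over all features. The medians were 0.36, 0.85, 0.75, 0.37 and 0.027. Bmp4, the bone morphogenetic protein that with LIF sustains self-renewal, read 3.43 and 3.52 in J1, 5.55 and 5.56 in JP-23, 4.62 and 4.70 in JP-23+3b-3, 3.73 and 3.86 in the Dnmt3b-/- line, 2.70 in the Dnmt1-/- line and 2.82 in the triple knockout. J1 was in the middle of the lines, and JP-23 was 3.38-fold above the Dnmt3b-/- line (limma adjusted p = 8.5e-05). Wnt5a, a ligand of non-canonical Wnt signalling in the proximal run, was 4.43-fold higher in JP-23+3b-3 than in JP-23 (limma adjusted p = 0.0013). Spry2, a feedback inhibitor of FGF signalling in the distal run, was lower than J1 in all 5 lines, by -0.56, -0.85, -0.54, -1.38 and -1.33.

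Of 11 developmental transcription factors, 5 lie in the middle run and J1 was below all arrays for 2, Hmbox1 and Tsc22d1; 3, 6, 4, 4 and 5 were called higher and 4, 2, 4, 3 and 3 lower, several of them near the shares over all features, with medians of 0.09, 0.34, -0.10, -0.066 and 0.38. Otx2, a regulator of the primed epiblast, read 3.43 and 3.42 in J1, 2.63 and 2.70 in JP-23, 3.62 and 3.48 in JP-23+3b-3, 4.28 and 4.39 in the Dnmt3b-/- line, 4.39 in the Dnmt1-/- line and 5.03 in the triple knockout. Here JP-23 was lowest, below J1. Klf5, which supports naive pluripotency and lies distally, was lower than J1 by -0.50 in JP-23, -0.56 in JP-23+3b-3, -0.93 in the Dnmt1-/- line and -1.14 in the triple knockout, with -0.23 in the Dnmt3b-/- line not called.

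Of 9 neural and other differentiated-cell genes, 8 lie in the middle run and J1 was below all arrays for 3, Mmp14, Myh6 and Myh7; 3, 3, 6, 6 and 3 were called higher and 6, 4, 1, 1 and 2 lower, with medians of -0.999, -0.33, 0.90, 1.33 and 0.34. Stmn4, a neuronal microtubule-destabilizing protein, read 0.33 and 0.17 in J1, -3.36 and -3.28 in JP-23, -1.22 and -1.18 in JP-23+3b-3, 1.93 and 1.93 in the Dnmt3b-/- line, 1.17 in the Dnmt1-/- line and -1.29 in the triple knockout. The Prdm14 lines and the triple knockout were below J1, and the single knockouts above it. The JP-23 readings were dim, near the lowest mean level of any middle gene (-3.60), so folds against JP-23 rest on dim readings. JP-23 was 38.1-fold below the Dnmt3b-/- line (log2 -5.25, SE 0.09, limma adjusted p = 8.9e-06), and 4.35-fold below JP-23+3b-3 (limma adjusted p = 0.00062). Clu, the secreted chaperone clusterin, and Nefl, the light neurofilament, were also lower in JP-23 than in the Dnmt3b-/- line, by -3.28 and -2.18. Myh6 and Myh7, neighbouring cardiac myosin genes of very similar sequence, were higher than J1 by 1.56 and 2.31 in JP-23, and their probes may read both. Of 4 blood cell genes, 2, 3, 3, 2 and 3 were called higher and 2, 1, 1, 1 and 1 lower (medians 0.14, 0.69, 1.07, 0.23 and 0.88), too few genes to set against those shares.

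**Figure D5:**
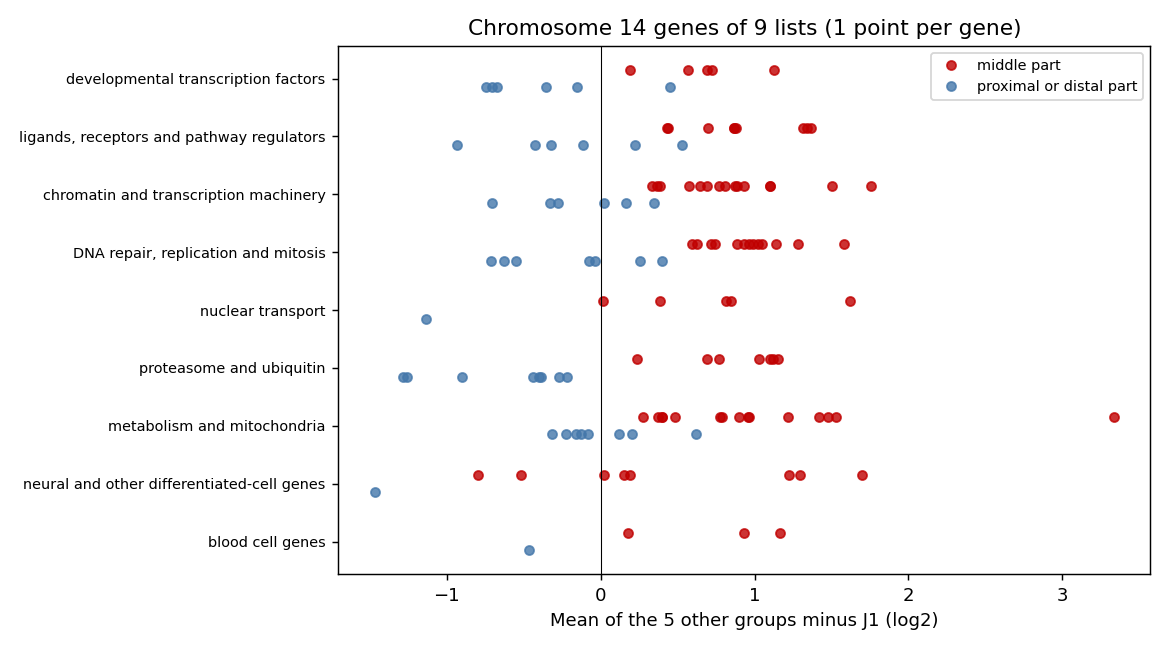
Each point is 1 chromosome 14 gene of 1 of 9 lists (rows), placed by the mean log2 level of the 5 other groups minus J1 (x axis), in red for the middle run and blue for the rest of the chromosome. Nearly all red points lie to the right of 0, Ephx2 the farthest, and most blue points to the left. The axis is not centred on the other autosomes, whose median gene lies at -0.098.

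In the distal run, Mir17hg read 2.05 and 2.56 in J1, 0.71 and 0.78 in JP-23, -0.30 and -0.20 in JP-23+3b-3, 0.49 and 0.66 in the Dnmt3b-/- line, 0.43 in the Dnmt1-/- line and 0.36 in the triple knockout. J1 was highest, and JP-23+3b-3 lowest. The host transcript was lower than J1 by -1.56, -2.56, -1.73, -1.88 and -1.95 (log2; limma adjusted p between 0.00024 and 0.0032), and lower by 0.997 (log2 -0.997) in JP-23+3b-3 than in JP-23 (limma adjusted p = 0.015). Slitrk5, a neuronal transmembrane protein, and Farp1, a guanine nucleotide exchange regulator, were lower than J1 by -2.54 and -2.79 in JP-23 and by -1.92 and -2.10 in JP-23+3b-3. Gm10845, a predicted gene, went the other way in the lines without Dnmt1 (chr14:80260429-80260488): it read 3.37 and 3.41 in J1, 3.00 to 3.17 in the Prdm14 lines and the Dnmt3b-/- line, 8.25 in the Dnmt1-/- line and 7.17 in the triple knockout. Against the Dnmt3b-/- line these 2 lines were 25.4-fold higher together (limma adjusted p = 5.5e-05).

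The first 10 Mb of the chromosome behaved differently from the rest of the proximal run. Its 39 genes had medians of -1.27 in JP-23 and -1.32 in JP-23+3b-3 against J1, -0.40 in the Dnmt3b-/- line, -0.17 in the Dnmt1-/- line and -0.28 in the triple knockout, relative to the other autosomes. Most carry only predicted or probe names and belong to a block of near-identical copies, so single genes here are uncertain, and 16 of the 39 matched RefSeq. Their probes may read the same transcripts, so the counts below may hold the same signal several times. Of the 39, 25 were called lower in JP-23 than in J1 (18.7% of all features) and 23 lower than in the Dnmt3b-/- line (15.7%), and 13 were lower in JP-23+3b-3 than in JP-23 (10.9%). All 4 Prdm14 arrays lay below the 6 other arrays for 20 of the 39, beside 9.70% of the genes on the other autosomes. Gm3002, for example, read 1.23 and 1.11 in J1, -0.27 and -0.29 in JP-23, -0.90 and -1.18 in JP-23+3b-3 and 0.18 to 0.57 in the 3 knockout lines.

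In the comparisons without J1, the called shares were nearer those of the array as a whole. Those that involve JP-23 set lines on different slides against each other, so slide and line cannot be told apart in them. For JP-23+3b-3 against JP-23, limma called 156 of the 582 genes (20.7% of all features), 81 higher (9.8%) and 75 lower (10.9%). Ltb4r1, a leukotriene receptor, Wnt5a, Stmn4 and Rb1 had the largest rises (2.29, 2.15, 2.12 and 1.87), and Dok2, an adaptor of receptor tyrosine kinases, Gm9376 and Cdkn3, a cyclin-dependent kinase phosphatase, the largest falls (-1.61, -1.51 and -1.27). Without any 1 of the 4 arrays of these lines the count was 54 to 76. For JP-23 against the Dnmt3b-/- line, 248 were called (37.1%), 113 higher (21.4%) and 135 lower (15.7%). Besides Piwil2, Sox21, a transcription factor of neural progenitors, rose by 2.06 and Bmp4 by 1.76, while Stmn4, Clu, Serp2, an endoplasmic reticulum protein (-2.94), and Pdlim2, a PDZ-LIM protein (-2.77), fell. Without a JP-23 array that count was 155 or 157, and without the first Dnmt3b-/- array 164.

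For the Dnmt1-/- and triple knockout lines together against the Dnmt3b-/- line, 164 were called (22.3%), 52 higher (11%) and 112 lower (11.2%). In the middle run 72 of 296 were lower and 19 higher, in shares of 24.3% and 6.42%, beside 13.5% and 8.62% of the genes on the other autosomes. The largest falls, after Stmn4 (-1.99), were Dock5, a Rac activator (-1.72), Lgals3, the lectin galectin-3 (-1.56), and the acetylcholine transporter gene Slc18a3 (-1.34). Lgals3 read 5.85 and 5.89 in the Dnmt3b-/- line against 3.97 and 4.66 in the lines without Dnmt1, with J1 at 4.25 and 4.22. Anxa8, an annexin in the proximal run, rose by 1.42. Without either Dnmt3b-/- array the count of 164 fell to 73 or 71.

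The genes whose 6 group means were most like the median of the whole chromosome were Armh4 (Pearson r = 0.98 over 6 groups), Tinf2 (0.97), Rab2b (0.96), Clybl (0.96), Tep1 (0.96) and Fermt2 (0.96), all in the middle run except Clybl. The groups share normalization, and no test was made. Armh4, a membrane protein, read -3.03 and -2.87 in J1 and -1.51 to -0.07 elsewhere, with J1 below all others. Homez, a homeodomain and leucine zipper protein, read -1.37 and -1.66 in J1 and 0.05 to 0.71 elsewhere, again without overlap. Of the housekeeping genes, Tpt1, the translationally controlled tumour protein gene in the middle run, read 9.34 and 9.09 in J1 and 9.63 to 9.87 elsewhere, while Rps24, a ribosomal protein gene in the proximal run, read 9.90 and 9.70 in J1 and 9.50 to 9.89 elsewhere, overlapping it.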

How the data were processed

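Total RNA was amplified, labelled with Cy3 and hybridized to one-colour Agilent arrays, 1 sample per array, on 4 slides; slide 1 held 5 arrays, slide 2 held 3, and each JP-23 array had a slide of its own. The deposited scanner files hold spot intensity, background-corrected by the authors with Agilent Feature Extraction 10.7.3.1, per the file headers. The deposited value table holds log2 values, median 4.24 on every array, that track the log2 scanner signal (r at least 0.9993); limma is also named in the submitters' processing notes. Here outlier-flagged spots were dropped, spots of a probe averaged, and log2 signal was taken minus each array's 75th percentile. limma 3.58.1 (R 4.3.3) fitted all 10 arrays (4 residual degrees of freedom) over 23797 features, with Benjamini-Hochberg adjustment at 0.05. 404 of the 582 genes matched RefSeq by accession, and other names are the array's. Genes were named by rule: per comparison the 5 largest called rises and falls without overlap, list members, the 6 most like the chromosome median, and the brightest. Prxl2a, Tspan14, 1700016D02Rik and Gm6994 at the borders, and Vwa8, were chosen after their values were seen. The members and lists were chosen with earlier results of these data known. The precision is limited by the number of arrays, and the 2 single-array lines borrow the spread of the others.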

Additional observations from a re-analysis of the deposited data

How the results depend on the processing

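The order of comparisons below is JP-23, JP-23+3b-3, Dnmt3b-/-, Dnmt1-/- and triple knockout against J1, then JP-23+3b-3 against JP-23, JP-23 against Dnmt3b-/-, and the Dnmt1-/- and triple knockout lines together against Dnmt3b-/-. The chromosome 14 shift in that order was 0.108, 0.134, 0.13, 0.157, 0.188, -0.0228, -0.0565 and -0.044 with quantile normalization. It was 0.0879, 0.0836, 0.115, 0.132, 0.156, 0.00428, -0.0639 and -0.0543 with normexp background correction, where the sixth value changed sign. The values were 0.115, 0.135, 0.128, 0.159, 0.196, -0.0218, -0.0589 and -0.045 with the deposited value table. They were 0.109, 0.138, 0.154, 0.158, 0.226, -0.0141, -0.0725 and -0.0445 with the mean of all probes of a gene. With a wider gene set they were 0.21, 0.185, 0.187, 0.195, 0.239, -0.0193, -0.0212 and -0.0363 with genes above background in a whole group. They came to 0.142, 0.149, 0.139, 0.192, 0.241, -0.024, -0.0464 and -0.0258 with other autosomes without chromosomes 8 and 11 and to 0.314, 0.352, 0.44, 0.341, 0.382, -0.00702, -0.0891 and -0.091 with only genes matched to RefSeq, an alternative chosen after seeing the data. With slide as a block the shift was 0.185 for Dnmt1-/-, 0.207 for the triple knockout and -0.0483 for the last comparison. Centring on the other autosomes changed no shift and could not, because the shift is already relative to them. The 5 shifts against J1 kept their direction under all these settings, and the cause of their movement was not tested. The wider gene set is no independent check, because genes can enter it through only those groups where they are high. Leaving out 1 array at a time gave shifts of 0.121 to 0.135, 0.13 to 0.178, 0.138 to 0.19, 0.171 to 0.187, 0.195 to 0.272, -0.0238 to -0.00456, -0.0885 to -0.0638 and -0.0587 to -0.0414, and 0.663 to 0.755 for the middle run.

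The J1 level of the chromosome, taken here as the median gene of the J1 mean (-0.132) and not as the mean of the array medians, was -0.119 with quantile normalization, -0.0954 with normexp background correction, -0.122 with the deposited value table, -0.137 with the mean of all probes of a gene, -0.231 with genes above background in a whole group and -0.147 with other autosomes without chromosomes 8 and 11. The set of genes above background in a whole group has the limit given above. The middle run, 0.729 above J1 over the 5 lines, was 0.684 with quantile normalization, 0.567 with normexp, 0.712 with the deposited table, 0.698 with the mean of probes, 0.848 over RefSeq-matched genes and 0.788 on the slide 2 arrays, all chosen after seeing the data. Borders from slide 2 gave the same value because they were the same borders. The highest window was 0.825 with 10 Mb windows and 0.85 with 4 parts of equal gene number. Counts of called genes stayed within 1.5 times the reported ones under every setting that kept all arrays. Without 1 array they were 273 to 339, 277 to 325, 196 to 269, 166 to 188, 192 to 226, 54 to 144, 155 to 240 and 71 to 159. Only the last 3 counts fell by more than 1.5 times, with fewer arrays in the fit. The labels give replicate arrays only a number, but numbers 1 and 2 follow slides 1 and 2 in J1, JP-23+3b-3 and Dnmt3b-/-. Deviations of same-numbered arrays correlated at 0.255 to 0.511 in all 6 pairs of groups. With that number as a replicate block the shifts were 0.121, 0.13, 0.138, -0.0238 and -0.0638 for the 5 comparisons between groups of 2 arrays. A balanced block cannot change these shifts. The counts can change, and were 403, 392, 341, 220 and 309 genes called. Of 645 called combinations of a named gene or list gene and a comparison, 213 lost their call in at least 1 setting and 0 changed direction. Probes of near-identical copies and the single arrays of the Dnmt1-/- and triple knockout lines limit what can be said of single genes, and depth is set by signal over background.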
